A study of Mus musculus with 6 samples.

Results

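The genes described here are 32 genes of cholesterol synthesis and of its control by sterol regulatory element binding proteins (SREBPs), measured in murine pre-B cells that carry BCR-ABL1, the fusion kinase of Philadelphia chromosome leukaemia. They were chosen by name from the pathway, with earlier results of these data known. A gene entered when a probe set on the array carried its symbol and no other. Of the 32, 29 were matched to such a probe set, out of 19733 genes tested in all. Acat2, Nr1h2 and Soat1 were not matched to a probe here. When a gene had several probe sets, the brightest over the 6 arrays was used.

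In both groups bone marrow pre-B cells of Ppp2r1a fl/fl mice had been transduced with BCR-ABL1; Ppp2r1a encodes the scaffold of the phosphatase PP2A. The Cre group (3 arrays) had received Cre recombinase to delete the floxed gene, and the EV group (3 arrays) an empty vector; the labels call EV wild type, although its alleles are floxed. Arrays are numbered as repeats in each group, and nothing says whether a repeat was its own culture or mouse. The p-values then measure only the spread between these samples, possibly technical. Cre was not given to cells without floxed alleles, and effects of Cre itself cannot be told apart from those of the deletion. Ages of the mice, time after transduction and any selection of transduced cells were not stated in the labels. Values are log2 expression levels from Affymetrix arrays, normalized by the authors with RMA, so a difference of 1 is a doubling, taken relative to the rest of the transcriptome. Ppp2r1a read 7.12, 6.98 and 6.92 in Cre and 9.06, 9.05 and 9.06 in EV, lower in every Cre array. All 10 B precursor markers measured, among them Cd79a, Vpreb1 and Pax5, had mean levels above the array medians (5.22 to 5.27). Their mean level was 10.16 to 10.31 in Cre against 10.61 to 10.67 in EV. Of these markers Rag1 fell by 2.09 (SE 0.12, limma adjusted p = 0.000155) and Rag2, its partner in V(D)J recombination, fell by 1.84 (SE 0.22, adjusted p = 0.00469). Ebf1 differed by -0.24 (SE 0.06; adjusted p = 0.0865), and the other 7 by -0.12 to 0.14. The part of this shift in the results below was not tested. Of 34 markers of macrophages, stromal cells, granulocytes, T cells and red cells, 4 had mean levels above the array medians. The mean level of the macrophage list ranged from 4.21 to 4.31 in Cre and from 4.22 to 4.28 in EV. Of its 9 genes, 7 differences were above 0 and 2 below. Cd68, the highest of them in level, was lower in every Cre array, at -0.36 on average (SE 0.08, limma adjusted p = 0.0637). In such bulk samples, fewer cells of a type and less RNA per cell cannot be told apart.

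Cholesterol is built from acetyl-CoA through mevalonate to isoprenoids, which are joined to squalene, closed to the ring of lanosterol and trimmed to cholesterol in the endoplasmic reticulum. Transcription of these enzymes is driven mainly by SREBP2, while SREBP1 drives fatty acid synthesis. When sterols are low, SCAP escorts the SREBPs to the Golgi, where proteases free their active part, and when sterols are high, INSIG proteins hold SCAP back. The liver X receptors (LXRs) sense oxysterols and switch on export through Abca1 and Abcg1. Dividing lymphocytes depend on this pathway for new membrane and for the lipid anchors of signalling proteins.

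SREBPs bind sterol response elements (SREs) close to the start of their target genes, usually beside sites of the CCAAT-binding factor NF-Y. The 250 bases before the start site are printed for Hmgcs1, which has an SRE match there, and for Idi1, Nsdhl and Cyp51, the 3 members with the smallest p-values. Sequences are from RefSeq for GRCm38.p6, read 5′ to 3′ towards the gene. Capitals mark an SRE (TCACNCCA, where N is any base) or an NF-Y box (CCAAT), on either strand, so that ATTGG is an NF-Y box on the other strand. Hmgcs1 lies at chr13:119690101-119690350 on the + strand, Idi1 at chr13:8885356-8885605 on the + strand, Nsdhl at chrX:72918271-72918520 on the + strand and Cyp51 at chr5:4104698-4104947 on the - strand.
Hmgcs1: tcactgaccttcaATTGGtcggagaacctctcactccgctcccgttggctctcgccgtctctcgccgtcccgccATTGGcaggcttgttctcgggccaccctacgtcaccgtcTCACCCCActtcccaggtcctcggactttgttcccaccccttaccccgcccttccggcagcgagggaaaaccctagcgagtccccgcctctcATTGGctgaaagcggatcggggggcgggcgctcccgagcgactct
Idi1: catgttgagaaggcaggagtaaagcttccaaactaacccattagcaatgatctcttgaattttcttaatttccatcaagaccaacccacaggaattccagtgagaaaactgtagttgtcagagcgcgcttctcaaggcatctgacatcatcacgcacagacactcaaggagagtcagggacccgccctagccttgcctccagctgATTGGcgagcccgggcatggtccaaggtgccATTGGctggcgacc
Nsdhl: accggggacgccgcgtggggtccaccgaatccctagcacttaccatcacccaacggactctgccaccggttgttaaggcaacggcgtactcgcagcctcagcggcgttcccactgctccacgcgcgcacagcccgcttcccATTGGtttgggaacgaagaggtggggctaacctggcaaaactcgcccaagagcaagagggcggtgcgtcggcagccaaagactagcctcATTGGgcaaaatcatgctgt
Cyp51: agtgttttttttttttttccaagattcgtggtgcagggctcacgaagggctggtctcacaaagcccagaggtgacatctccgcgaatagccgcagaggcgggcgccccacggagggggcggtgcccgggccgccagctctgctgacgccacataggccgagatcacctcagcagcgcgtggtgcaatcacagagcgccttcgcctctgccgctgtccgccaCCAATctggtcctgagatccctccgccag

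The Hmgcs1 stretch holds 1 SRE, which begins at position -137 from the start site, and 3 NF-Y boxes. The stretches of Idi1 and Nsdhl hold 2 NF-Y boxes each and that of Cyp51 holds 1, with no exact SRE. A promoter was matched for 23 of the 29 members measured, and a gene with several start sites was counted when any of them held the motif. An NF-Y box was found in 20 of the 23, including 15 of 15 enzymes, against 37.5% of 27025 genes with a promoter (33.8% of 32851 promoters). The SRE was found in 3 of the 23, Hmgcs1, Msmo1 and Srebf2, against 4.2% of genes (3.67% of promoters). The E-box CACGTG, which SREBPs can also bind, was found in 6 of the 23, against 6.86% of genes (6.02% of promoters); Hsd17b7, Sc5d, Dhcr7, Scap, Insig1 and Abca1 held it. No SRE or E-box match in these promoters overlapped an NF-Y box. A match describes the letters only, and no match says nothing about binding.

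None of the 29 genes passed the test between Cre and EV, at a limma p adjusted over all 19733 genes below 0.05. In that test 3.49% of all genes passed. Before adjustment, 9 of the 29 (31.0%) had a p below 0.05, against 16.1% of all genes. The largest differences were small, 0.34 higher in Cre for Idi1 and 0.31 lower for Lss. The 2 groups of arrays were fully separate, with no overlap in level, for 11 of the 29 (37.9%), against 22.5% of all genes. Cre was higher in 6 of the 29 (20.7%), against 10.3% of all genes, and lower in 5 of the 29 (17.2%), against 12.2%. The 6 were the enzymes Hmgcs1, Idi1, Sqle, Cyp51, Nsdhl and Hsd17b7. The 5 were 1 enzyme, Lss, and 4 genes of control, export and transport, Srebf1, Scap, Abcg1 and Npc2.

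The 18 enzymes and the other 11 genes lay mostly on opposite sides of 0. Differences were above 0 for 14 of 18 enzymes (77.8%) and for 2 of 11 control, export and transport genes (18.2%), against 49.1% of all genes. The median difference was 0.10 for the enzymes, -0.11 for the other 11 genes and -0.003 for all genes. Whether the lists differ was not tested. With the arrays quantile normalized again the enzyme count was 15, and with arrays centred on their medians it was 14; the other count was 2 in both. Leaving out each array in turn gave 12 to 15 enzymes above 0, with medians of 0.05 to 0.15, and 1 to 3 of the other genes, with medians of -0.12 to -0.08. The median over all 29 genes was 0.03, and without EV replicate 1 it was -0.01.

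**Figure D1:**
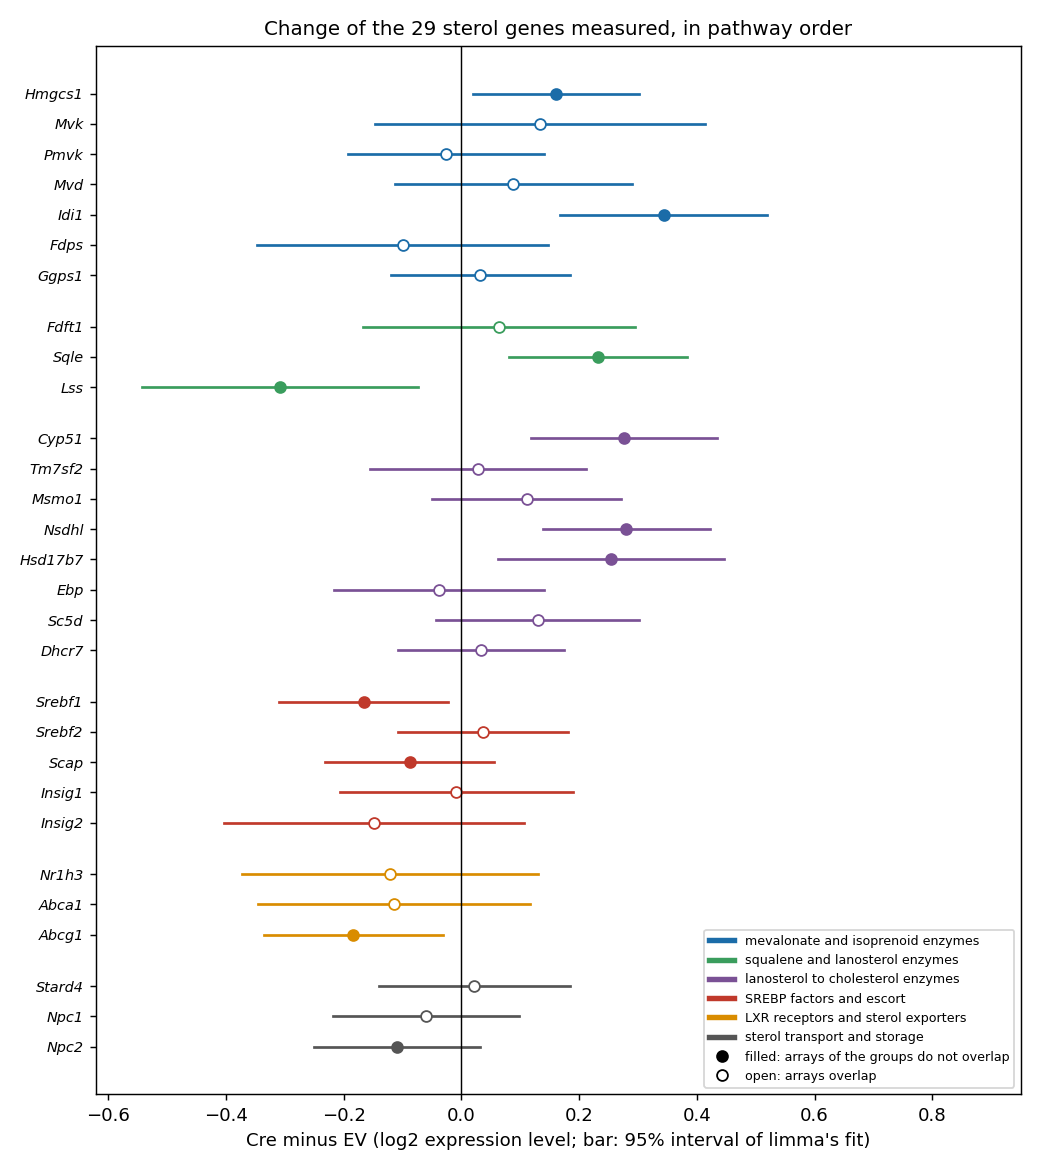
Difference between Cre and EV (log2 expression level, horizontal axis) for the 29 genes measured, in pathway order from top to bottom within each role, with the 95% interval of limma's fit as a bar. Filled points mark the 11 genes whose arrays do not overlap between groups: 6 enzymes lie right of 0, and Lss, Srebf1, Scap, Abcg1 and Npc2 lie left of it.

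Among the enzymes from acetyl-CoA to isoprenoids, Idi1 stood highest. It encodes the isomerase that interconverts the isoprene units. Its probe set read 8.67, 8.72 and 8.72 in Cre and 8.23, 8.40 and 8.45 in EV. Every Cre array was above every EV array, and EV replicate 1 was the lowest of the 6. The difference was 0.34 (SE 0.08; 95% interval 0.17 to 0.52), 1.27-fold, at a limma adjusted p of 0.0569. This probe set, 10482762, stands in the table between those of Stam2 and Rprm, genes of chromosome 2, while Idi1 lies on chromosome 13. Whether it reads Idi1 itself or a similar sequence elsewhere was not tested.

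A second probe set of Idi1, 10403413, stands beside those of Adarb2 and Idi2, which are on chromosome 13. It read 8.34, 8.46 and 8.47 in Cre and 8.01, 8.25 and 8.16 in EV. The groups again did not overlap, and EV replicate 1 was again lowest. The difference was 0.28 (SE 0.08; limma adjusted p = 0.146 over 25006 probe sets). Fdft1, the squalene synthase at the branch towards sterols, also had 2 probe sets. Its brighter one read 7.43, 7.41 and 7.36 in Cre and 7.12, 7.40 and 7.49 in EV, a difference of 0.06 (SE 0.10; adjusted p = 0.826), and its other one differed by 0.04 (SE 0.07). The arrays of the groups overlapped on both Fdft1 probe sets.

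**Figure D2:**
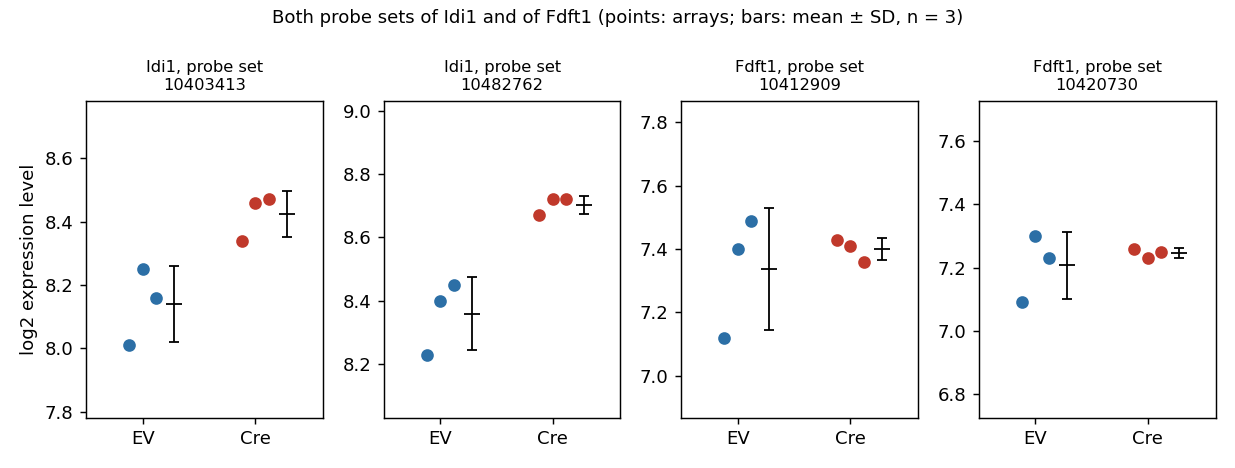
Log2 expression level on each array for both probe sets of Idi1 and of Fdft1, with the mean and SD of 3 arrays beside the points; each panel spans 1 log2 unit. Both Idi1 probe sets are higher in all Cre arrays, by 0.34 and 0.28, and both Fdft1 probe sets overlap between groups.

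Hmgcs1, the synthase that makes HMG-CoA and the gene with the SRE printed above, read 7.87, 7.84 and 7.89 in Cre and 7.67, 7.74 and 7.70 in EV. The groups did not overlap, at a difference of 0.16 (SE 0.06; 95% interval 0.02 to 0.30; adjusted p = 0.244). Mvk, the mevalonate kinase, had a wide spread, at 6.25 ± 0.21 in Cre and 6.12 ± 0.15 in EV (SD, n = 3), and its groups overlapped. Pmvk and Mvd, the next kinase and the decarboxylase, differed by -0.03 (SE 0.07) and 0.09 (SE 0.09). Fdps, which makes farnesyl pyrophosphate, read 7.97, 7.98 and 8.23 in Cre and 7.98, 8.30 and 8.20 in EV. Each group held a reading near 7.98 and another of about 8.2, and the difference of -0.10 (SE 0.11) was within that spread. Ggps1, which makes the geranylgeranyl anchor, differed by 0.03 (SE 0.07). The intervals of Mvk, Pmvk, Mvd, Fdps and Ggps1 reached from -0.35 at the lowest to 0.41 at the highest, so differences of up to that size are not excluded for this arm.

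At the ring-forming steps, the neighbouring enzymes Sqle and Lss differed in opposite directions. Sqle, the squalene epoxidase, read 8.54, 8.41 and 8.46 in Cre and 8.22, 8.27 and 8.23 in EV. All Cre arrays were higher, by 0.23 on average (SE 0.07; 95% interval 0.08 to 0.38), 1.17-fold, at an adjusted p of 0.120. Lss, the cyclase that closes the sterol ring, read 5.52, 5.42 and 5.52 in Cre and 5.62, 6.0 and 5.76 in EV. All Cre arrays were lower, by 0.31 on average (95% interval of Cre minus EV -0.54 to -0.07; SE 0.10; adjusted p = 0.175). The Lss readings lie close above the array medians, where a log2 change understates the fold. Neither gene passed.

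In the steps from lanosterol to cholesterol, all Cre arrays were above all EV arrays for 3 of 8 enzymes (37.5%), against 10.3% of all genes. The count was 2 of 7 (28.6%) from mevalonate to isoprenoids and 1 of 3 (33.3%) at the ring-forming steps. Differences were above 0 for 7 of the 8 (87.5%), against 49.1% of all genes. Whether these groups of steps differ was not tested. Nsdhl, an X-linked dehydrogenase that helps to remove the methyl groups of lanosterol, read 7.86, 7.90 and 7.95 in Cre and 7.63, 7.64 and 7.60 in EV. The spread within each group was small beside the gap between them. The difference of 0.28 (SE 0.06; 95% interval 0.14 to 0.42), 1.21-fold, had a limma adjusted p of 0.0548, the smallest among the 29 genes.

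Cyp51, the cytochrome P450 that starts the demethylation, read 8.27, 8.12 and 8.26 in Cre and 7.91, 7.95 and 7.96 in EV. Its groups did not overlap, at a difference of 0.28 (SE 0.07; 95% interval 0.12 to 0.44; adjusted p = 0.0815). Hsd17b7, which reduces the ketone left by Nsdhl, read 7.14, 7.22 and 7.40 in Cre and 6.99, 6.97 and 7.04 in EV. Its Cre arrays were spread more widely than its EV arrays, and the difference was 0.26 (SE 0.08; adjusted p = 0.172). Msmo1, the methylsterol oxidase that acts with Nsdhl, differed by 0.11 (SE 0.07) and overlapped by a narrow margin, its lowest Cre array reading 8.19 and its highest EV array 8.21. Of the other enzymes of these steps, Sc5d, a desaturase, differed by 0.13 (SE 0.07), Dhcr7, the last reductase, by 0.03 (SE 0.06), and Ebp, an isomerase, by -0.04 (SE 0.08). Tm7sf2, a sterol reductase, differed by 0.03 (SE 0.08), and its arrays overlapped.

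**Figure D3:**
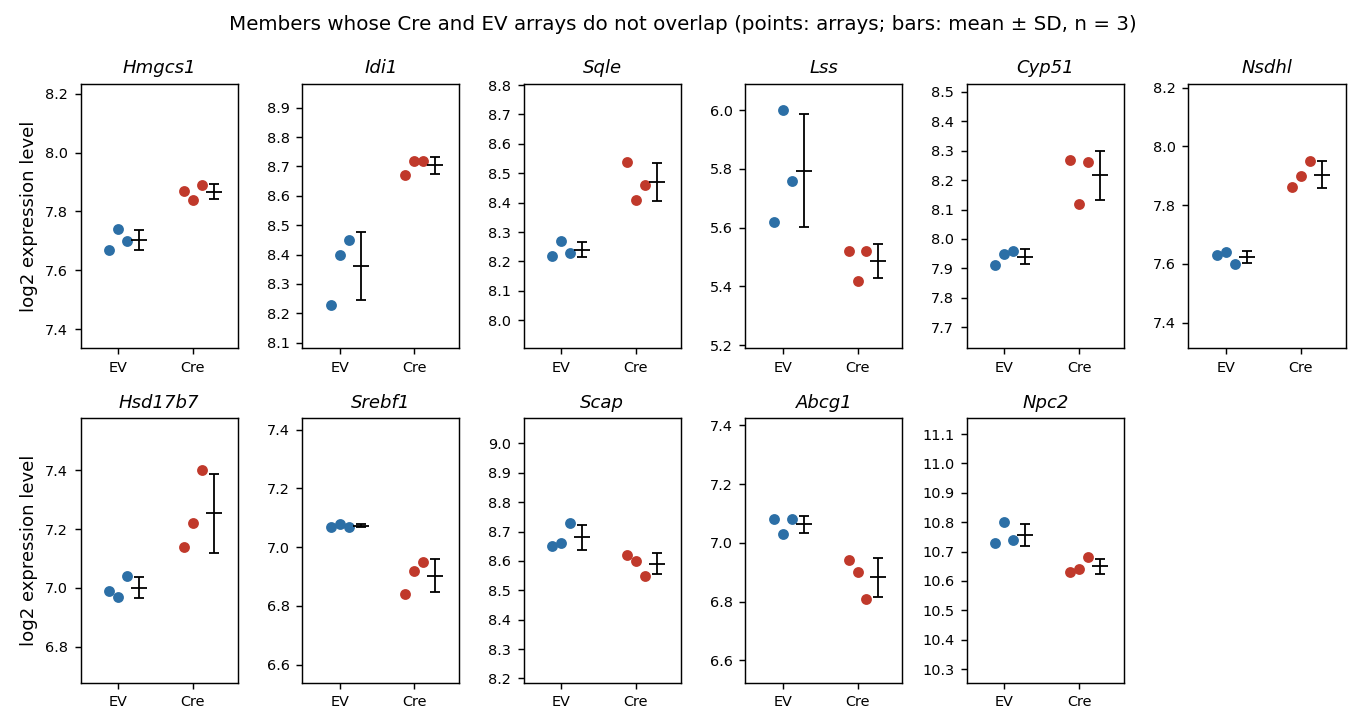
Log2 expression level on each array (EV in blue, Cre in red) for the 11 genes whose groups do not overlap, with the mean and SD of 3 arrays beside the points; each panel spans 0.9 log2 units. Hmgcs1, Idi1, Sqle, Cyp51, Nsdhl and Hsd17b7 are higher in Cre and the others lower, none past the adjusted threshold.

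The calls of Idi1, Nsdhl, Cyp51 and Sqle depended on how limma was run. All 4 passed when variances were moderated with trend and robust settings (adjusted p between 0.00222 for Idi1 and 0.0131 for Sqle), a setting under which 1558 of all genes passed in place of 689. All 4 also passed with the dimmer 50% of genes left out (0.00909 for Nsdhl to 0.0284 for Sqle). Abca1 and Nr1h3 were among the genes left out, and 4 of the 27 sterol genes left passed, beside 1295 of 9866 genes in all. All but Sqle passed with the dimmest 25% left out, where 940 of 14798 genes passed. Idi1 and Nsdhl passed after another quantile normalization (0.0430 each), where 706 of 19733 genes passed. Nsdhl passed when all 25006 probe sets were tested (0.0496), where 792 probe sets passed. None of the 29 genes passed in any of the 6 fits with 1 array left out, where the smallest adjusted p was 0.0779, for Idi1 without EV replicate 3. With Idi1 read by probe set 10403413, a choice made after its values were seen, it passed with trend and robust settings (0.0173) and without the dimmer 50% (0.0414). It did not pass in the fit as reported (0.139), after quantile normalization (0.112) or without the dimmest 25% (0.0875).

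The 5 genes that control the enzymes differed by a median size of 0.088, against 0.09 for all genes. The groups did not overlap for 2 of the 5 (40%), both lower in Cre, against 22.5% of all genes. Srebf2, which encodes the main driver of sterol synthesis, read 8.29, 8.24 and 8.30 in Cre and 8.28, 8.24 and 8.19 in EV. The groups overlapped, and the difference was 0.04 (SE 0.06; adjusted p = 0.838), with a 95% interval of the Cre to EV ratio from 0.929 to 1.13. Srebf1, whose products favour fatty acid genes, read 6.84, 6.92 and 6.95 in Cre and 7.07, 7.08 and 7.07 in EV. All Cre arrays were lower, and the EV arrays nearly coincided. The difference was -0.17 (SE 0.06; 95% interval -0.31 to -0.02; adjusted p = 0.239).

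Scap, the escort of the SREBPs, read 8.62, 8.60 and 8.55 in Cre and 8.65, 8.66 and 8.73 in EV. The groups just failed to overlap, at a difference of -0.09 (SE 0.06; adjusted p = 0.565). Insig1, which retains SCAP and is itself a target of SREBPs, read 8.47, 8.50 and 8.61 in Cre and 8.39, 8.58 and 8.64 in EV. Its groups overlapped fully, and the difference was -0.01 (SE 0.09; 95% interval -0.21 to 0.19). Insig2, the second retention protein, read 6.48, 6.68 and 6.53 in Cre and 6.93, 6.55 and 6.66 in EV, a difference of -0.15 (SE 0.11). That value leaned on EV replicate 1, the highest array, and was -0.04 without it.

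All 3 genes measured of LXR and sterol export read lower in Cre, and none passed. Abcg1, which loads cholesterol onto lipoproteins, read 6.94, 6.90 and 6.81 in Cre and 7.08, 7.03 and 7.08 in EV. The groups did not overlap, at a difference of -0.18 (SE 0.07; 95% interval -0.34 to -0.03; adjusted p = 0.216). Abca1, the other exporter, read 3.92, 3.78 and 4.05 in Cre and 4.15, 4.07 and 3.88 in EV. Nr1h3, which encodes the alpha form of LXR, read 4.03, 4.05 and 4.22 in Cre and 4.26, 4.40 and 4.02 in EV. Both overlapped between groups, at -0.11 (SE 0.10) and -0.12 (SE 0.11), and both lay below the array medians, so a change in them would be understated. With 1 array left out, Abca1 ranged from -0.19 without EV replicate 3 to -0.05 without Cre replicate 2, and Nr1h3 from -0.23 without EV replicate 3 to -0.04 without EV replicate 2.

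Of the genes that move sterols within the cell, Npc2, which lifts cholesterol out of lysosomal lipid, read 10.63, 10.64 and 10.68 in Cre and 10.73, 10.80 and 10.74 in EV. All Cre arrays were lower by a little, at -0.11 on average (SE 0.06; adjusted p = 0.450). Its membrane partner Npc1 read 6.48, 6.40 and 6.56 in Cre and 6.54, 6.50 and 6.57 in EV, which overlapped, and differed by -0.06 (SE 0.07; adjusted p = 0.741). Stard4, a cytosolic sterol carrier and SREBP target, differed by 0.02 (SE 0.07). The interval of Stard4, -0.14 to 0.18, corresponds to a Cre to EV ratio of 0.908 to 1.14.

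Among other genes of the pathway none passed outside the fatty acid arm, while 3.49% of all genes passed. Of 13 further genes of sterol synthesis and uptake 8 were measured, and the smallest p was that of Mylip, a ubiquitin ligase and LXR target, at -0.30 (SE 0.11; adjusted p = 0.236). Of 11 further SREBP control genes 8 were measured, and Mbtps1, the protease that makes the first cut in SREBPs, read 6.76, 6.69 and 6.89 in Cre and 6.96, 7.12 and 6.97 in EV. Its groups did not overlap, at -0.24 (SE 0.08; adjusted p = 0.197).

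In the branches that leave the pathway, 0 of 11 genes of prenylation, dolichol and ubiquinone passed, against 3.49% of all genes. At that share a list this short can hold none. Their median difference was -0.06. Coq2, which attaches the isoprenoid tail of ubiquinone, was nearest to the threshold, at -0.24 (SE 0.08; adjusted p = 0.179). Of 14 oxysterol enzymes and sterol transfer proteins 0 passed, against the same 3.49%, with a median of -0.03. Osbpl8, a lipid transfer protein at contacts of the endoplasmic reticulum with the plasma membrane, had the smallest p there, at 0.23 (SE 0.06; adjusted p = 0.123). It passed with trend and robust settings (0.0245) and without the dimmer 50% of genes (0.0290). Among 5 further genes of LXR signalling, with a median of -0.13, Rxrb, a partner of LXR, was nearest to the threshold at -0.16 (SE 0.08; adjusted p = 0.374).

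Targets of SREBPs in fatty acid synthesis were mostly lower in Cre, with 10 of 14 differences below 0, and whether they differ from the sterol enzymes was not tested. Of the 14, 2 fell and 0 rose, while 2.14% of all genes fell, and the median was -0.12. Scd1, a desaturase that makes monounsaturated fatty acids, read 7.84, 7.85 and 7.82 in Cre and 9.75, 9.67 and 9.65 in EV. It fell by 1.85 (SE 0.06; limma adjusted p = 1.146e-05), against sizes of at most 0.34 among the 29 sterol genes. Scd2, its relative, read 9.55, 9.62 and 9.44 in Cre and 9.87, 9.97 and 9.89 in EV, and fell by 0.38 (SE 0.07; adjusted p = 0.0331), a call lost in each fit with 1 array left out (0.0629 to 0.109). In 6 of the 14 all Cre arrays were below all EV arrays, against 12.2% of all genes, and in 0 were they above, against 10.3%. Fasn and Acly, of the core route to palmitate, differed by -0.10 (SE 0.09) and -0.08 (SE 0.06).

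**Figure D4:**
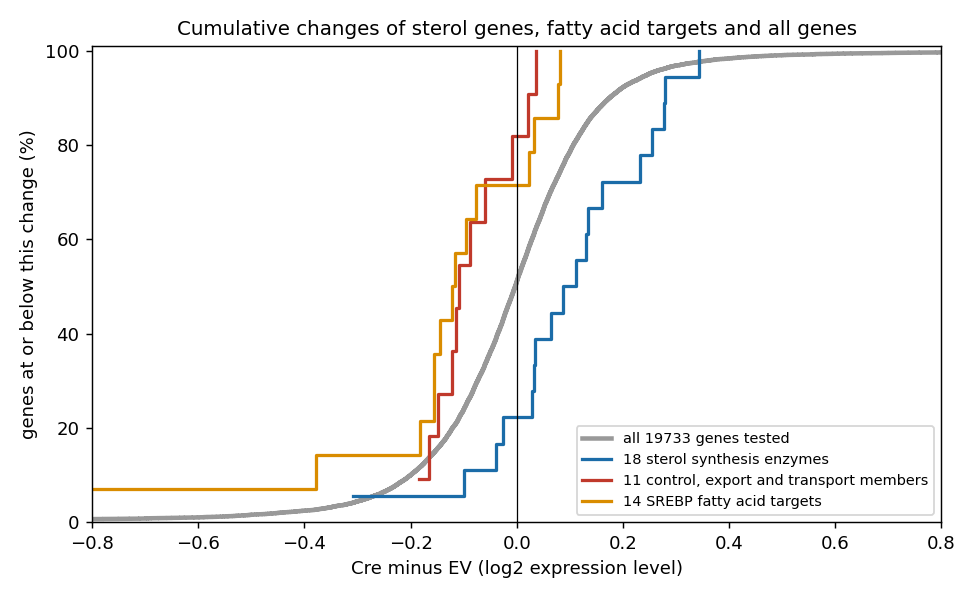
Cumulative share of genes (vertical axis, percent) at or below each difference between Cre and EV (log2 expression level) for the 18 sterol enzymes, the 11 genes of control, export and transport, the 14 fatty acid targets of SREBPs and all genes tested; the axis is limited to 0.8 either way, so Scd1 at -1.85 lies outside it. The enzymes have a median of 0.10, the control group -0.11, the fatty acid targets -0.12 and all genes -0.003.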

How the data were processed

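Total RNA of 6 cell samples (3 Cre, 3 EV) was labelled with biotin for 1-colour Affymetrix arrays, per the labels' protocols. The authors deposited log2 levels for each probe set, made with RMA (background subtraction, quantile scaling and summary of probes), per the submitters' processing notes; its version and any filters are not stated there. RMA sets the arrays to 1 distribution, so a shift of the whole transcriptome cannot be seen. No scanner values were used, so background correction and slide could not be varied, and precision is limited by the array number.

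Of 25006 probe sets, 21467 were assigned to 1 symbol by the platform annotation, 1521 to several and 2018 to none. Symbols were updated by gene identifier to RefSeq (GRCm38.p6; 21386 matched), and the brightest probe set was kept for 931 genes with several. Groups came from the sample titles. All 19733 genes were fitted in limma 3.58.1 under R 4.3.3 (lmFit, then eBayes; group only, no dim filter), with Benjamini-Hochberg adjustment over all genes and a threshold of 0.05; the script was checked on simulated data. The SE and 95% intervals are those of the moderated fit. Other steps used Python 3.11.15, pandas 2.3.3 and matplotlib 3.10.9.

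The genes and lists were chosen with earlier results of these data known. The 2 genes with the smallest p in each role were given array by array, as was any gene that passed. From the other lists the genes that passed were named, or else the smallest p. Gramd1b, Rnf145, Lbr, Fasn and Acly were chosen after their values were seen. The labels do not say whether equal repeat numbers pair the samples. Over all genes, deviations of arrays with the same number correlated at 0.009, -0.012 and 0.03. Such correlations cannot show pairing that touches few genes. Alternatives were a replicate block, leaving out each array, median centring, quantile normalization, dim filters of 25% and 50%, the mean of all probe sets, testing all probe sets, trend and robust eBayes, and array weights.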

Additional observations from a re-analysis of the deposited data

How the results depend on the processing

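The count of genes changed, 689, was 425 with the repeat number as a replicate block, between 362 and 424 with 1 array left out, 1295 without the dimmer 50% of genes and 1558 with trend and robust eBayes. The count of the 29 sterol genes changed, 0, was 2 after another quantile normalization, where 706 of 19733 genes passed. It was 3 without the dimmest 25% of genes, where 940 of 14798 genes passed. Of the 27 left without the dimmest 50%, 4 passed, beside 1295 of 9866 genes. With all probe sets tested it was 1 (792 of 25006 probe sets passed), and with trend and robust eBayes 4 (1558 of 19733 genes). It was 0 in the replicate block, in each fit with 1 array left out, with median centring, with probe set means and with array weights. Their median, 0.03, was 0.048 after quantile normalization and between -0.008 and 0.026 with 1 array left out, the lowest without EV replicate 1. The causes of these shifts were not tested. The dim filters both test fewer genes and moderate the variances over only the genes left. The replicate block also ended the call of Scd2 (limma adjusted p = 0.0719). It changed no call among the 29 sterol genes, nor those of Ppp2r1a, Scd1, Mylip, Mbtps1, Coq2, Osbpl8 and Rxrb. Calls of the cell type markers, Rag1 and Rag2 among them, and of genes chosen after their values were seen were not followed. None of Idi1, Hmgcs1, Sqle, Lss, Nsdhl, Cyp51, Srebf1, Scap, Abcg1, Abca1, Npc2 and Npc1 changed direction under these alternatives. Abca1 was not in the fit without the dimmest 50%. Pmvk, Fdft1, Tm7sf2, Ebp, Insig1 and Stard4, which differed by 0.06 or less, changed sign in at least 1 fit with an array left out. With 3 arrays a group, differences of up to 0.34 among the 29 genes did not pass in the fit as reported.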

Other observations

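Among genes near the pathway, 3 others with no overlap between groups were picked after their values were seen. The groups did not overlap for 5 of 14 oxysterol and sterol transfer genes (35.7%), the list of Gramd1b, against 22.5% of all genes. It was 2 of 8 (25%) for the further SREBP control genes, with Rnf145. For the further sterol synthesis and uptake genes, with Lbr, it was 1 of 8 (12.5%). Gramd1b, which carries cholesterol from the plasma membrane to the endoplasmic reticulum, read 5.63, 5.58 and 5.53 in Cre and 5.02, 5.03 and 5.46 in EV, where EV replicate 3 lay apart. The difference was 0.41 (SE 0.12; limma adjusted p = 0.139). Rnf145, a ubiquitin ligase of the endoplasmic reticulum linked to sterol sensing, read 8.23, 8.18 and 8.15 in Cre and 8.35, 8.35 and 8.37 in EV, a difference of -0.17 (SE 0.06; adjusted p = 0.219). Lbr, the lamin B receptor, which is also a sterol reductase with the same activity as Tm7sf2, read 9.82, 9.75 and 9.83 in Cre and 9.69, 9.65 and 9.57 in EV, a difference of 0.16 (SE 0.07; adjusted p = 0.281). None of the 3 passed.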
